A study of Homo sapiens with 16 samples.

Results

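H460 is an established human lung cancer cell line. It was profiled here with 7 other lung cancer lines (A427, A549, H23, H358, H661, H1437 and H1703), each grown on Matrigel, a basement membrane extract (3D), and on tissue culture plastic (2D). The H460 data are the 2 arrays labelled H460 3D and H460 2D, out of 16 in all. The other 7 lines gave the remaining 14 arrays. The labels name no drug or other agent, density and medium were similar in 3D and 2D, and 3D cells sat on a thin Matrigel layer under medium with 2% Matrigel. Each line had 1 array per culture, so nothing within H460 has a replicate and no difference between its cultures can be tested alone.

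Cancer lines keep much of the gene expression of the tumour they came from, set by its cell of origin and its mutations. H460 is widely used as a large-cell carcinoma line, and it is known for mutations of STK11, which encodes the kinase LKB1, and of KEAP1, which encodes the repressor of the stress factor NRF2. Cells placed on a soft, laminin-rich matrix lose the stiff flat support of plastic, and growth, matrix and stress genes are those usually followed in such cultures.

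The deposited values are log2 ratios. For most probe sets, the groups of short oligonucleotides that measure a transcript, the ratio is to their own median over the 16 arrays. A value of 0 is therefore the middle of the series, values of different genes are not levels and cannot be compared with each other, and the lowest ratio in the table is 0.01. A gene's value below is the mean over its probe sets whose median reached their reference, which gave 14113 genes to test. Another 5662 genes had only dim probe sets, those measured against a fixed minimum, and are described with no test. "Identity" here is the mean of the H460 arrays minus the mean of the other 7 lines. "Response" is 3D minus 2D. Both were set against the spread over the other lines with limma across all genes, with H460 as a single line assumed to vary like the other 7. A gene is called when its Benjamini-Hochberg adjusted p is under 0.05.

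Each H460 array was closest to the other H460 array. Over the tested genes the 3D array correlated with the 2D array at r = 0.895, a description across genes that are not independent. Its closest array of another line was A549 3D, at 0.266, and the same array was the closest to H460 2D, at 0.235. The epithelial markers of the line were mixed. KRT8 and KRT18, keratins of simple epithelium, lay near the middle of the series, at -0.03 and -0.51 in H460 3D and 0.25 and -0.28 in H460 2D. KRT19, another simple keratin, stood at 7.47 in 3D and 7.67 in 2D, near the 8.18 of H358 3D, the highest of the other arrays. EPCAM and CDH1, which encode a surface glycoprotein and the cadherin of epithelia, lay far below the middle. EPCAM was at -6.08 in 3D and -6.29 in 2D, and CDH1 at -4.33 and -4.61. H1703 was about as low for CDH1, at -4.32 in 3D and -4.365 in 2D. Vimentin, the intermediate filament of mesenchymal cells, was at -0.32 in 3D and -0.86 in 2D. The lung lineage factor NKX2-1 was at -0.19 and -0.29, against a median of 0.38 in the other arrays and 5.40 in H358 3D. Of 18 tested lung lineage genes, 4 were at least 2-fold below the mean of the other lines and 2 at least 2-fold above it. FOXA1 was high, at 4.59 in 3D and 4.18 in 2D, with 6.20 in H1437 3D. Of the 18, 1 was above all other arrays, where 4.22% of all genes were. The transcripts of the mutated regulators lay near the middle, with STK11 at -0.13 in 3D and -0.27 in 2D and KEAP1 at 0.48 and 0.53.

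The genes that set H460 apart from the other lines were led by TBXT, brachyury, a T-box transcription factor of the early mesoderm and the notochord. TBXT stood at 7.92 in H460 3D and 8.33 in H460 2D. In the 14 other arrays it ran from -0.82 to 0.44 with a median of -0.06. The identity difference was 8.24 with a standard error of 0.57 (limma, adjusted p = 0.0024). No other line had an array near either H460 array. LINC00824, a long non-coding RNA, was at 7.51 and 7.46 in H460 against at most 0.22 elsewhere. GDA, guanine deaminase, was at 6.28 and 6.73 against at most 0.39, although a dim probe set of the gene, at 10.52 and 10.43 in H460, reached 4.92 in another line.

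In all, 13 of 14113 genes were called in the identity test, 0.0921% of those tested, and all 13 were higher in H460. The same test with each other line in H460's place called 0 (H1703) to 64 (H661) genes. None was called lower by limma. An unadjusted p under 0.05 was reached by 637 genes, 271 of them lower. That count is below what this threshold gives over 14113 genes with no difference. One of the 13 is not described here. FERMT3, kindlin-3, an activator of integrins known from blood cells, was at 6.38 in 3D and 6.37 in 2D, while the other arrays reached at most 0.16. SLC2A13, a transporter of myo-inositol, had an identity difference of 5.65, and CTNND2, delta-catenin, known from neurons, 5.64. TMX4, a thioredoxin-related protein of the endoplasmic reticulum, differed by 3.95. ENG, endoglin, a co-receptor for TGF-beta known from endothelium, was at 3.43 in 3D and 3.75 in 2D, above the 0.97 of H1437 3D. ARHGEF6, an exchange factor for small GTPases, differed by 3.50 and SLC17A9, the vesicular nucleotide transporter, by 2.29. The remaining 2 are the non-coding RNAs LOC102546299 (3.55) and SLCO4A1-AS1 (3.37), the second of which is named as antisense to SLCO4A1. The adjusted p-values of these 12 genes ran up to 0.043. The call held in 6 of 16 alternative settings for SLC2A13, 7 of 16 for SLC17A9, 8 of 16 for SLCO4A1-AS1 and 8 of 15 for ENG, and in 13 to 15 for each of the other 8 genes. These calls rested on the choice of lines, since 6 genes were called without A427, 6 without H23, 8 without H1703 and 20 without A549. Without the variance trend in limma, 23 genes were called, and they included all 13. A stricter filter left out every probe set that lay over 4-fold below its reference on any array. Under it limma called 0 of 12717 genes, and 599 had an unadjusted p under 0.05. That is also below what the threshold gives with no difference. TBXT still differed by 8.24 under this filter.

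**Figure D1:**
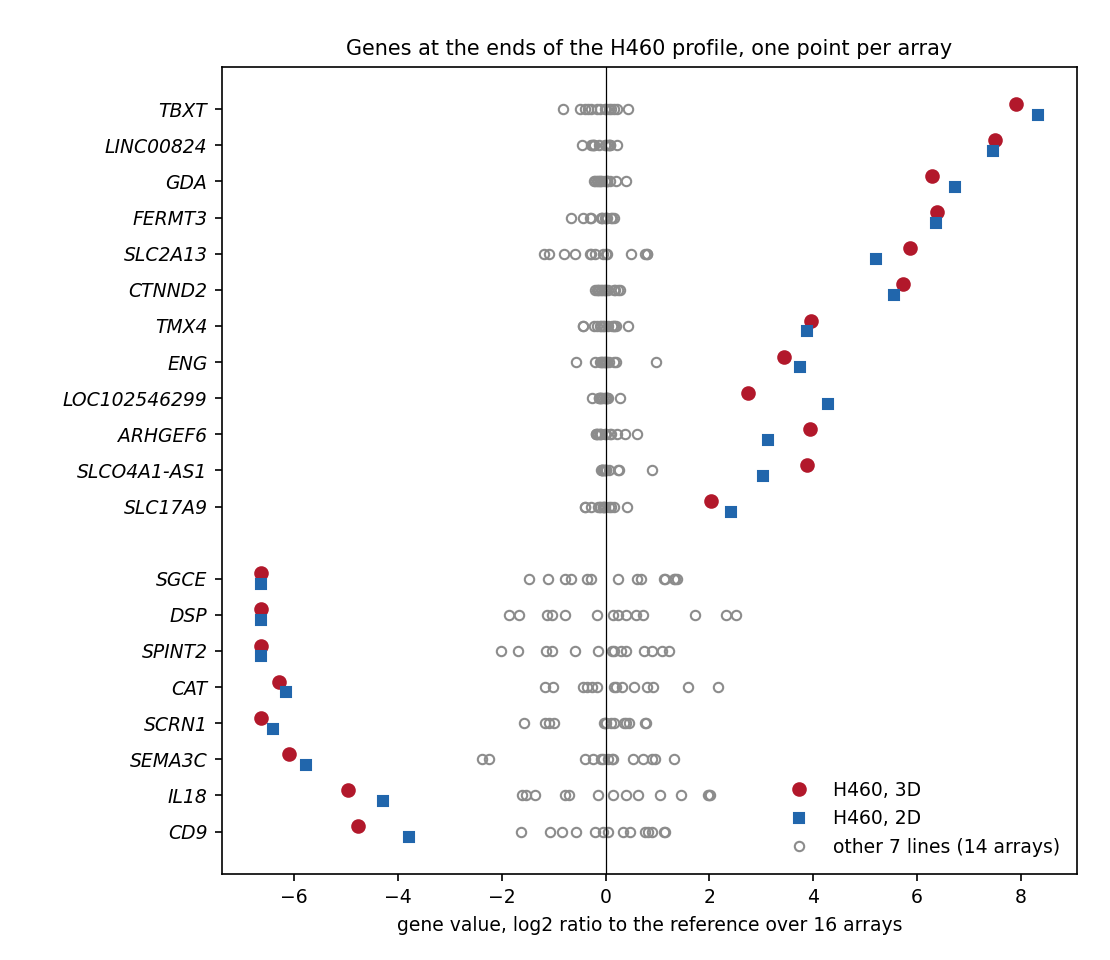
Values of the 12 called genes (top) and of 8 genes far below the other lines (bottom, chosen after their values were seen) in H460 3D (red circles), H460 2D (blue squares) and the 14 arrays of the other 7 lines (open grey circles). The horizontal axis is the gene value as a log2 ratio. Both H460 arrays lie outside the range of the other lines for every gene drawn, and SGCE, DSP and SPINT2 sit at the lowest ratio of the table.

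Counting without a test gave a wider set. Both H460 arrays lay above all 14 others for 596 genes (4.22%) and below all 14 for 610 genes (4.32%), together 8.55% of those tested. The same counts in the other lines ran from 457 above in A549 to 1057 in H1437, and from 311 below in H1703 to 1510 in H358. H460 was within these ranges. The genes farthest below, chosen after their values were seen, were SGCE, epsilon-sarcoglycan, DSP, desmoplakin, and SPINT2, an inhibitor of serine proteases. Each was at -6.64 in both H460 arrays, the lowest value that the table holds, so the difference from the other lines is a bound set by that minimum. Desmoplakin anchors intermediate filaments at desmosomes, and DSP was no lower than -1.87 in any other array. Of other genes far below, chosen in the same way, CAT, catalase, was at -6.30 in 3D and -6.15 in 2D against at least -1.16 elsewhere. SCRN1, secernin 1, at -6.64 and -6.41, was called lower without the variance trend (limma, adjusted p = 0.031) and not with it (adjusted p = 0.28). IL18, a cytokine of the interleukin-1 family, was at -4.96 and -4.28, and CD9, a tetraspanin, at -4.78 and -3.80.

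Among the 5662 genes with only dim probe sets, 151 (2.67%) were at least 2-fold above their reference in both H460 arrays, and for 38 of these every other array was at or below the reference. The other lines had 52 (H1703) to 189 (H661) such genes. FOXQ1, a forkhead transcription factor, was at 8.92 in 3D and 9.90 in 2D, the highest mean ratio to the reference over both H460 arrays in this set, while A549 3D reached 5.58. TMEM100, a transmembrane protein known from endothelium, was at 8.98 and 7.54, and no other array passed -0.22. HPGDS, the haematopoietic prostaglandin D synthase, was at 7.27 and 7.54 against at most -0.59. The cancer-testis gene MAGEB2 was at 8.09 and 8.01, and DAZL, an RNA-binding protein of germ cells, at 5.57 and 6.08. Of 8 cancer-testis genes with only dim probe sets, these 2 alone were at least 2-fold above reference in both H460 arrays. Of the 7 tested cancer-testis genes, 3 were at least 2-fold below the mean of the other lines and 1 at least 2-fold above it. Other genes with only dim probe sets were shared with another line. TSPAN7 was also at 7.83 in H1437 2D, and FGG, the gamma chain of fibrinogen, at 8.22 and 6.45 in H460, lay below the 11.69 of H1437 3D.

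FERMT3 and HPGDS are best known from blood cells, and the markers of such cells were measured beside them. Of 14 leukocyte markers, 6 were tested, 6 had only dim probe sets and 2 were not analysed here. PTPRC, the pan-leukocyte phosphatase CD45, was at 0.18 in H460 3D and -0.04 in H460 2D. CD3D was at -0.07 and -0.05, and CD53 at 0.08 and -0.03. None of the 6 dim markers was 2-fold above its reference in both H460 arrays. CD14, a co-receptor for bacterial lipopolysaccharide, was the one tested marker at least 2-fold higher, at 4.34 and 1.99, with 4.44 in H1437 3D. Of 10 endothelial markers, none was at least 2-fold higher in H460, and PECAM1 was at -0.19 and -0.08.

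NRF2 is a transcription factor that induces enzymes of glutathione, NADPH and xenobiotic metabolism, and KEAP1 normally marks it for degradation. The 27 tested NRF2 targets had a median identity difference of 1.52, against -0.08 over all genes. Of these, 24 were above 0, where 40.7% of all genes were, and 19 were at least 2-fold higher. The share of all genes with an identity difference past 2-fold was not counted. The 2-fold identity counts of this and the other lists therefore have no background beside them. The largest values were shared with A549 and H1437. AKR1B10, an aldo-keto reductase, was at 11.39 in H460 3D and 11.56 in H460 2D, with line means of 11.45 in A549 and 11.46 in H1437 and at most 0.24 in the other 5 lines. AKR1C1, AKR1C2 and AKR1C3, related reductases of steroids and carbonyls, had H460 values of 6.11, 9.55 and 8.62 in 3D. ABCC2, an efflux pump for glutathione conjugates, was at 7.03 in H460 3D and 7.30 in H460 2D, against a line mean of 8.34 in A549. For 4 of the 27 targets both H460 arrays stood above all others, where 4.22% of all genes did. They were SRXN1, sulfiredoxin (2.51 and 2.73, others at most 2.07), SLC7A11, the cystine transporter (1.69 and 2.13, others at most 1.19), TXN, thioredoxin, and CYP4F11, a fatty acid hydroxylase (5.97 and 6.19, others at most 4.06). None of the 27 was called in the identity test. The line median of these genes was 1.48 in H460, 1.13 in A549 and 2.20 in H1437, and at most 0.04 elsewhere.

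LKB1 restrains the CRTC coactivators of CREB through the salt-inducible kinases. Of 24 genes of this axis, 21 were tested, with a median identity difference of 1.90, 13 at least 2-fold higher and none called. CPS1, carbamoyl phosphate synthetase, was at 4.29 in 3D and 4.72 in 2D, and the other lines spread from -6.02 (H1703) to 4.79 (H1437) as line means. LINC00473, a CREB-induced non-coding RNA, was at 3.88 and 3.69, above the 2.31 of H1437 3D, the highest of the rest. GLCE, an epimerase of heparan sulfate synthesis, was at 3.75 and 3.15 and RFK, riboflavin kinase, at 2.62 and 2.90, both above all other arrays. SIK1, one of the salt-inducible kinases, was at 0.86 and 1.18 against at most 0.81. The median was 0.89 under the stricter filter on low arrays. H1437 had a line median of 1.62 for these genes, beside 1.59 in H460, followed by 0.54 in A549 and at most 0.09 elsewhere.

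Genes of epithelial junctions lay low, and several mesenchymal and basement membrane genes lay high. The 25 tested junction genes had a median identity difference of -1.23, with 13 at least 2-fold lower and 5 below all other arrays, where 4.32% of all genes were. The identity median was -0.75 without the probe sets that can bind related transcripts. Low junction genes were shared with other lines, since the line median was -0.34 in H460, -0.38 in A549, -0.36 in H23 and -0.44 in H1703. Beside DSP and SPINT2, these 5 were OCLN, occludin, at -2.99 and -2.40, LSR, a protein of tricellular junctions, at -2.87 and -4.05, and TJP3 at -0.87 and -0.90. EPCAM was not among them, since another array reached -6.20, and the line means of H1703 and A549 were -5.95 and -5.38. CLDN4, a claudin, went the other way, with 3.29 and 3.30 and an identity difference of 1.84. Of 16 tested mesenchymal genes, 8 were at least 2-fold higher, 3 at least 2-fold lower and none called. The line median of these genes was 1.38 in A549, 0.45 in H460 and 0.36 in H23. CDH11, the cadherin of mesenchyme and bone, was at 8.48 and 8.67, above the 5.89 of H23 3D. FN1, fibronectin, was at 5.96 and 5.09 and TWIST2, a basic helix-loop-helix factor, at 3.76 and 3.72, both above all other arrays. TWIST1, its close relative, was at -4.05 and -4.12, and CDH2, N-cadherin, at -2.39 and -2.21.

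Of 12 tested basement membrane genes, 7 were at least 2-fold higher in H460, led by COL4A6, a chain of collagen IV (4.14 and 4.57, others at most 2.04). The line median of the list was 1.04 in H460, 1.02 in A549 and at most 0.16 elsewhere. LAMA1, the laminin alpha 1 chain, measured by dim probe sets, was at 3.97 and 4.75. COL18A1, collagen XVIII, was below all other arrays at -2.58 and -2.37. Of 17 tested interstitial matrix genes, 8 were at least 2-fold lower and 5 at least 2-fold higher. Their identity median was -0.49, and between -0.64 and 0.01 over the alternatives. SPP1, osteopontin, a secreted ligand of integrins, was at 8.41 and 8.38, with 8.14 in A549 3D. THBS1, thrombospondin 1, was at -4.24 and -4.26. The integrin chain ITGA3, a receptor for laminins, was below all others at -3.79 and -3.72.

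**Figure D2:**
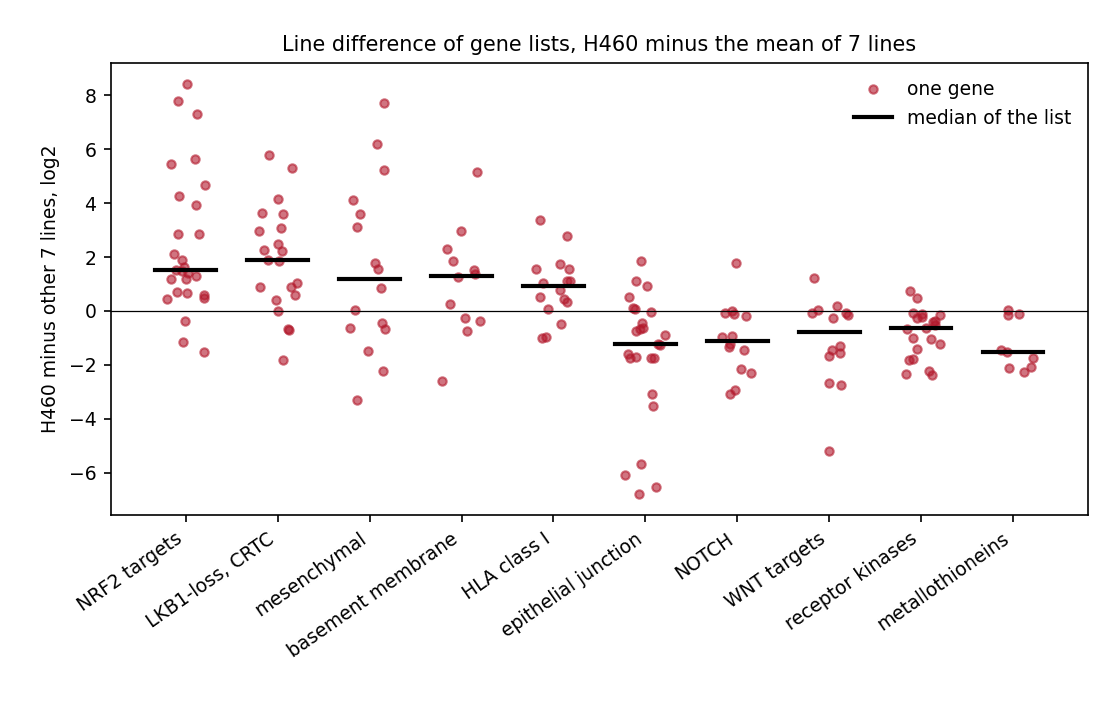
Identity differences (vertical axis, H460 minus the mean of the other 7 lines, log2) of the tested genes of 10 lists, with 1 point per gene and a black bar at the list median. The medians of the first 5 lists lie above 0, with NRF2 targets at 1.52, and those of the last 5 below, with epithelial junction genes at -1.23.

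The NOTCH, WNT and receptor kinase lists had identity medians below 0. NOTCH receptors act through cleavage and the HES and HEY repressors. Among 14 NOTCH genes the median identity difference was -1.10, and -0.18 under the stricter filter on low arrays. HES1 was at -2.27 in 3D and -3.29 in 2D and LFNG, a glycosyltransferase of the receptors, at -3.19 and -3.23. Both were below all other arrays, while NOTCH3 was above all of them at 2.15 and 1.58. WNT target genes had a median of -0.79 over 14 genes, and -0.21 under the same filter. Of these, AXIN2, NKD2, RNF43, ZNRF3 and BMP4 were below all other arrays, 5 of 14 beside 4.32% of all genes. BMP4, at -2.40 in 3D and -2.29 in 2D, was close to H1703, at -2.27 in 3D and -2.08 in 2D. AXIN2, the feedback scaffold of the pathway, was at -0.49 in 3D and -0.53 in 2D, near the -0.40 of the lowest other array. Of 21 receptor kinases, 4 were below all others, beside the same 4.32%, namely ERBB2, ERBB3, FGFR3 and FGFR4, with ERBB3 at -1.64 and -1.73. Of 9 metallothioneins, cysteine-rich metal-binding proteins, 6 were at least 2-fold lower, and MT1X was at -2.43 and -2.59. Their identity median was -1.52, and -0.13 without the probe sets that can bind related transcripts. A427 had the lower line median, -2.003, beside -1.79 in H460 and -1.28 in H661. CDKN2A and CDKN2B, neighbouring cell cycle inhibitor genes often deleted in cancer, were at -1.88 and -1.35 in 3D and -1.92 and -1.47 in 2D. The arrays of A427, A549 and H1437 were about as low, between -2.02 and -1.78 for CDKN2A and between -1.53 and -1.40 for CDKN2B. SMARCA2, an ATPase of SWI/SNF complexes, was above all other arrays at 2.33 and 2.25. NLRC5, the activator of class I genes, was also above all others at 3.55 and 2.63.

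Between the 3D and 2D arrays of H460, 540 genes differed at least 2-fold, 277 higher in 3D (1.96%) and 263 lower (1.86%), with no replicate to test them. The other lines ran from 153 such genes in A427 to 1053 in H661, where 689 were lower in 3D. Of all tested genes 50.5% were below 0 in H460 and 49.4% above 0. These shares and those past 2-fold are the background of the list counts below. The H460 differences correlated across genes with those of the other lines at r between 0.05 for A427 and 0.35 for H23, with a median of 0.28. Among the 21 pairs of other lines the median was 0.18. The 18S ribosomal RNA controls of the array differed too. Their mean was -0.37 in H460 3D and 1.24 in H460 2D, a difference of -1.61, and the other lines ran from -3.45 to -0.08. The part of these controls in the differences below was not tested. In whole cultures fewer cells of a kind and less RNA per cell cannot be told apart.

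Response differences between H460 and the other lines were called for 2 genes, 0.0142% of those tested. With each other line in H460's place, 0 (A427, H23 and H1703) to 43 (A549) genes were called. An unadjusted p under 0.05 was reached by 559 genes for H460, below what this threshold gives over 14113 genes with no difference. ITGA2B, the alpha IIb chain of the platelet fibrinogen receptor, stood at 3.51 in H460 3D and 0.12 in H460 2D, a 10.4-fold difference. In the other lines its 3D minus 2D value lay between -0.39 and 0.11. The difference of 3.44 between H460 and their mean had a standard error of 0.28 (limma, adjusted p = 0.0045), and all 14 alternative settings kept the call. Both tested probe sets showed it, at 3.999 and 2.77, and the dim ones had 3.40 and 0.61. No other line reached the H460 3D level, the nearest being H23 2D at 1.18. The second gene was LOC102546299, one of the identity genes, at 2.74 in H460 3D and 4.28 in H460 2D. Its difference of -1.54 compares with 0.04 to 0.28 in the other lines (limma, adjusted p = 0.035), and it was called in 5 of 14 alternatives. Its dim probe sets had 0.11 and -1.52. It was lost, among others, without any single line except H358.

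The highest of the genes that led H460 3D over 2D was CP. This gene, ceruloplasmin, the copper-carrying ferroxidase of plasma, was at 4.85 in 3D and 0.40 in 2D, a 21.8-fold difference. A549 had 6.13 and H358 3.63 as 3D minus 2D, and the remaining lines at most 1.12, although H1437 was at 10.41 in 3D and 9.29 in 2D. C1R, a protease of the first complement component, was at 4.60 in 3D and 0.63 in 2D, with 3.06 as the highest response elsewhere, in A549. CFD, complement factor D, differed by 3.37 in H460, and by 0.11 to 1.69 in the other lines. FBLN5, an elastic fibre protein, differed by 3.37 and PPL, periplakin, a cytolinker of desmosomes, by 3.35. COXFA4L2, a mitochondrial protein induced by hypoxia, was at 4.22 in 3D and 1.28 in 2D, with H358 the next at 1.24. DEPP1, a FOXO-induced regulator of autophagy, differed by 2.86. CD14 differed by 2.34 in H460 and 3.52 in A549. KLRC3, a receptor known from natural killer cells, PON3, a lactonase, and STC1, a secreted glycoprotein, had 2.60, 2.28 and 2.26. The surface mucin MUC1 was at 0.24 in 3D and -1.76 in 2D. None of these but ITGA2B was called as a difference between H460 and the other lines.

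**Figure D3:**
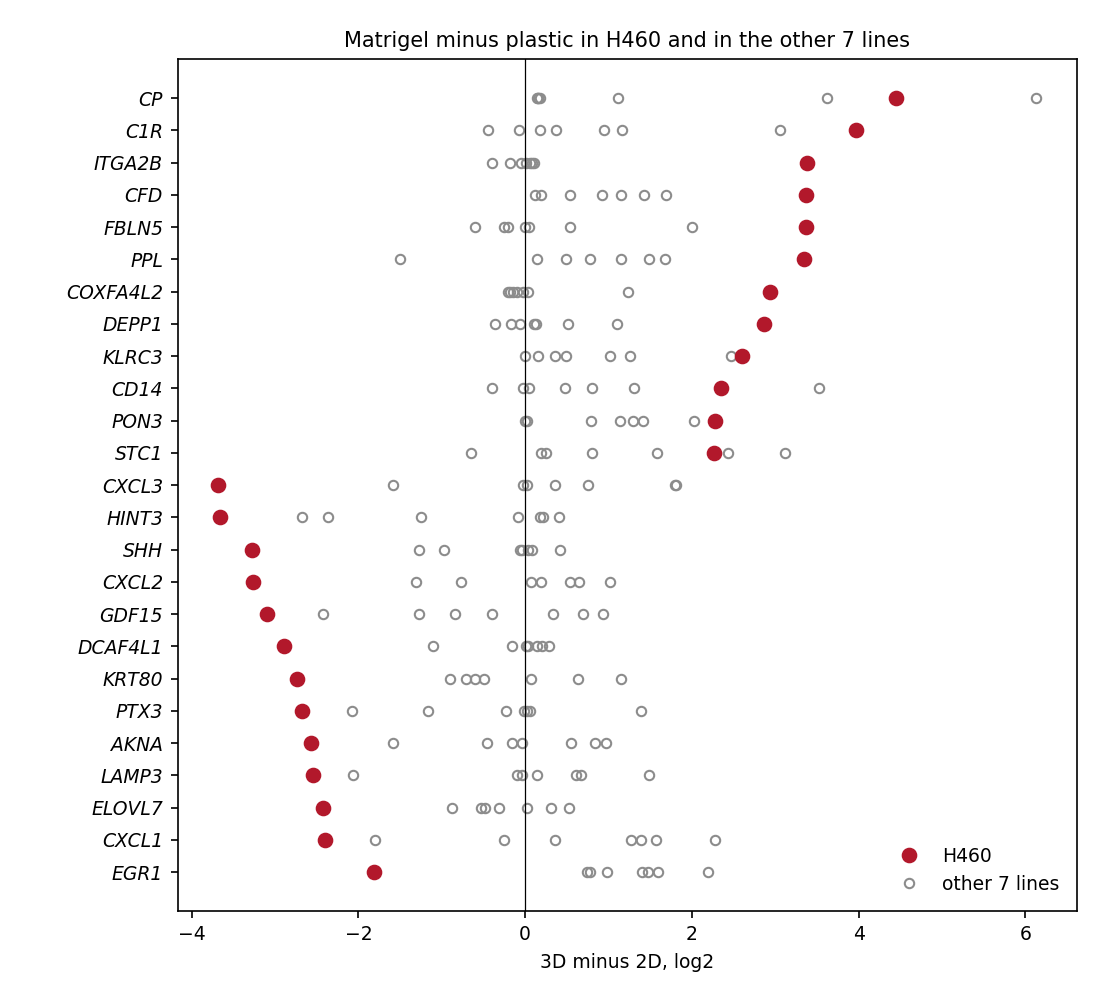
3D minus 2D (horizontal axis, log2) of the 12 highest and 12 lowest genes of H460 and of EGR1, in H460 (red) and the other 7 lines (open grey). The genes were ranked on the H460 values, so their position at the ends is fixed by that choice. CP and CD14 show A549 beyond H460, while ITGA2B and EGR1 show H460 alone.

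CXCL3 was the lowest gene of H460 3D over 2D, and CXCL2 and CXCL1 were also among the 12 lowest. CXCL1, CXCL2, CXCL3 and CXCL8 encode small secreted proteins that draw neutrophils through the receptor CXCR2, and NF-kB is their best known inducer. CXCL3 was at 1.43 in H460 3D and 5.11 in H460 2D, 12.8-fold lower in 3D. CXCL2 was at -0.08 in 3D and 3.19 in 2D, CXCL1 at 2.93 and 5.32, and CXCL8, interleukin-8, at 2.28 and 4.27. For all 4 genes H460 2D was the highest of the 16 arrays, since the other lines reached at most 4.95 for CXCL3, 1.69 for CXCL2, 3.43 for CXCL1 and 2.42 for CXCL8. The values of the probe sets within a gene pointed the same way, at -4.12 and -2.41 for CXCL2 and -2.32 and -1.68 for CXCL8. The first CXCL2 probe set and both of CXCL8 are of a type that can bind related transcripts, and without that type CXCL2 had -2.41, or -2.15 with all types and a dim probe set included.

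Of the 7 cytokines of the list with only dim probe sets, 2 were also far lower in H460 3D than in 2D, and the other 5 had differences between -0.09 and 0.54. IL6, interleukin-6, was at 7.31 in H460 3D and 9.69 in H460 2D. CXCL5 was at 4.60 and 7.16. In both, A549 3D was the other high array, at 7.05 and 7.38. Of the other lines H661 shared this direction, with 11 of the 14 tested chemokines and cytokines below 0 and 5 at least 2-fold lower. H23 and H460 each had 10 below 0, with 1 at least 2-fold lower in H23. A427, A549 and H1437 each had 12 above 0. The 3D minus 2D value of CXCL3 was 1.79 in A549, 1.81 in H1437, 0.76 in H358, 0.36 in A427, 0.03 in H1703, -0.02 in H23 and -1.59 in H661. PTGS2, cyclooxygenase 2, was at 0.15 in H460 3D and 1.43 in H460 2D, and its 3D minus 2D value was 3.83 in A549. Of 14 tested chemokines and cytokines, 6 were at least 2-fold lower in H460 3D (1.86% of all genes) and none at least 2-fold higher (1.96%). In 8 the value was below all other lines, where 10.8% of all genes were. The median response was -0.56 in H460, and -0.39 (H661) to 1.10 (A549) elsewhere. It was -0.08 in H460 under the stricter filter on low arrays. As differences between H460 and the other lines, none was called (limma, adjusted p = 0.65 for CXCL3 and 0.47 for CXCL2).

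The promoters of 5 of these genes are shown because the genes differed in the same direction and because the motif that NF-kB binds lies at nearly the same place in each. The sequences are from RefSeq, GRCh38.p14, and give the 250 bases before the gene start on the gene's own strand, 5′ to 3′, with matches to the kappa B motif GGANNTTCC in capitals. Their positions are chr4:73869143-73869392 (CXCL1, plus strand), chr4:74099196-74099445 (CXCL2, minus), chr4:74038690-74038939 (CXCL3, minus), chr4:73740319-73740568 (CXCL8, plus) and chr7:22726950-22727199 (IL6, plus).
CXCL1: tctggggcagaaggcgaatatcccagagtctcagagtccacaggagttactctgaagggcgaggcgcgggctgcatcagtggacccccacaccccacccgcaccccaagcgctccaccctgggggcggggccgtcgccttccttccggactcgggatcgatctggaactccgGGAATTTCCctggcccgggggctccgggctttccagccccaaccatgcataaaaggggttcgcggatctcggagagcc
CXCL2: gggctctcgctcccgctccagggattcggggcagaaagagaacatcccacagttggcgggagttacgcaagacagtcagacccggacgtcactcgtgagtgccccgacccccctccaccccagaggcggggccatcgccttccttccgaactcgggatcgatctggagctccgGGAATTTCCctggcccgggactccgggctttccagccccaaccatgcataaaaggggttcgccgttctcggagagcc
CXCL3: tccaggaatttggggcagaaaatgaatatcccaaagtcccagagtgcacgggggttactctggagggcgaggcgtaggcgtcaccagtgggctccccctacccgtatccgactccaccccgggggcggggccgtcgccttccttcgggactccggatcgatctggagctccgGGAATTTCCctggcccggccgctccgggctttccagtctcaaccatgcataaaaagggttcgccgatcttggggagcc
CXCL8: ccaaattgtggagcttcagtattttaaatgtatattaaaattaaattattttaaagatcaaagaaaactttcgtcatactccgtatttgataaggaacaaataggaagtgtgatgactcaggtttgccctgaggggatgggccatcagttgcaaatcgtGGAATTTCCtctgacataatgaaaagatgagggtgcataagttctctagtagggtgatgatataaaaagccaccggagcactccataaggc
IL6: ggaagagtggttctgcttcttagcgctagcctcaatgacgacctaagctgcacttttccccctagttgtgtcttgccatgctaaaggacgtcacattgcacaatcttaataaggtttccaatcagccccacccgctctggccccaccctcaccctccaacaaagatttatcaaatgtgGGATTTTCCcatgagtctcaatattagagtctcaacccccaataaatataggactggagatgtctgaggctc
The match starts at position -78 from the gene start in CXCL1 and CXCL3, -77 in CXCL2, -91 in CXCL8 and -72 in IL6. The motif was searched on both strands. Of 17 chemokine and cytokine promoters in the table, 10 held it, 58.8%, against 3.88% of all 27305 promoters. Among the 10 were CXCL1, CXCL2, CXCL3, CXCL5, CXCL6 and CXCL8 of chromosome 4, with the same matched bases, so these promoters are not independent. NF-kB is the best known inducer of several of the listed genes, so the share is no test. CXCL6 and CXCL10 held the motif too, with 3D minus 2D values of 0.20 and 0.03 in H460. The AP-1 motif TGANTCA was in 3 of the 17, 17.65%, and in 6.6% of all, and CXCL8 was the one of the 5 printed that held it. A match is a description of the letters and not of binding.

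NF-kB also induces its own inhibitors and subunits. RELB and NFKB2, subunits of the non-canonical branch, were at -1.77 and -0.36 in H460 3D and 0.27 and 1.51 in H460 2D. ICAM1, a leukocyte adhesion molecule, differed by -1.03, as did TNFAIP3, the ubiquitin-editing inhibitor A20, by -1.03. TNFAIP3 stayed above all other lines in either culture, at 4.29 in 3D and 5.31 in 2D against at most 2.95. Of 14 genes of this group 4 were at least 2-fold lower and 10 were below 0, where 1.86% and 50.5% of all genes were. The median was -0.50, and -0.34 (H23) to 0.55 (H1437) in the other lines, but it was -0.09 in H460 without the probe sets that can bind related transcripts. SOD2, the mitochondrial superoxide dismutase, differed by 0.11 and IRF1, an interferon-response factor, by 0.94.

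**Figure D4:**
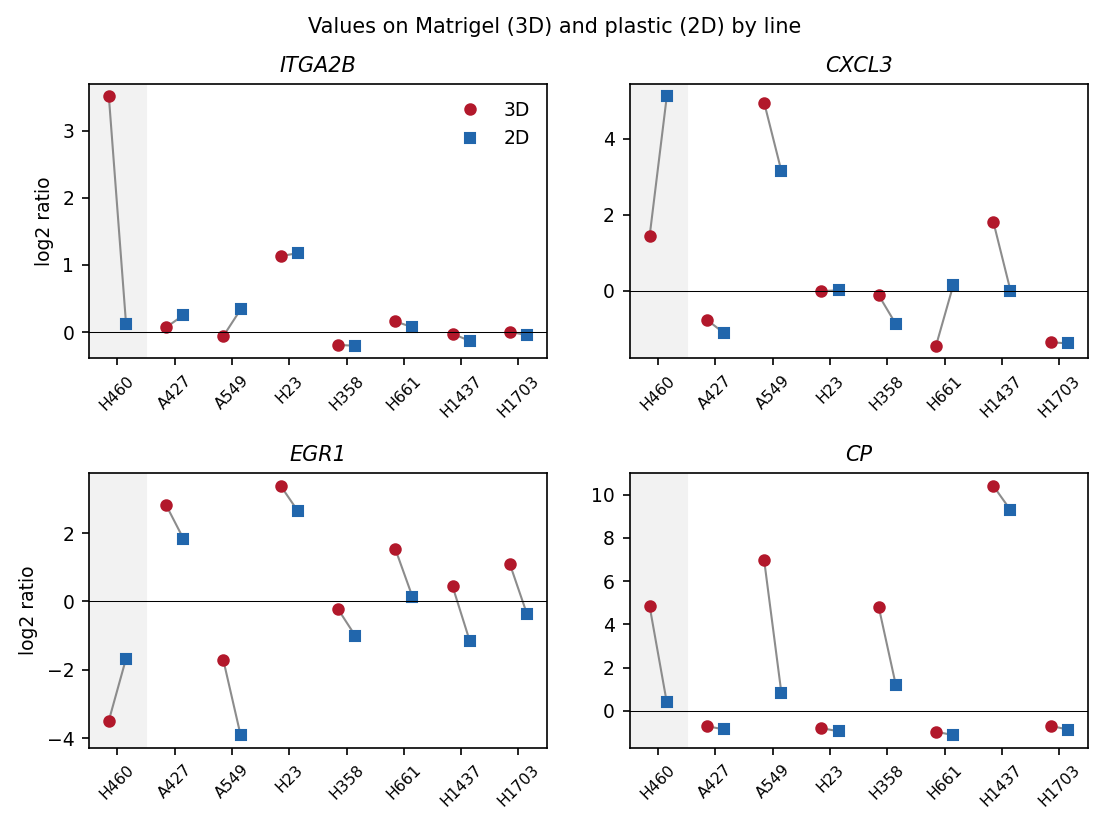
Values on Matrigel (red circles) and plastic (blue squares) of ITGA2B, CXCL3, EGR1 and CP by line, H460 first on the shaded ground, on the log2 ratio scale with 1 array per point. ITGA2B reaches 3.51 in H460 3D alone, CXCL3 is highest in H460 2D at 5.11, EGR1 is lower in 3D than in 2D in H460 and higher in 3D in the other 7 lines, and CP is high in 3D in H460, A549, H358 and H1437.

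EGR1, an immediate early zinc-finger factor induced by ERK, was at -3.49 in H460 3D and -1.68 in H460 2D, a difference of -1.81 that was -1.22 with a dim probe set included. In every other line it was higher in 3D, by 0.74 (H23) to 2.19 (A549). The difference between H460 and the others was not called (limma, adjusted p = 0.59). Among all genes 105 (0.744%) were below 0 in H460 and above 0 in the other 7 lines. With each other line in H460's place, this count ran from 65 in H23 to 236 in H661. Of the 105, 4 were at least 2-fold lower, EGR1, LOC102546299, AAGAB and FAM221A, the last 2 chosen after their values were seen. FOS, another immediate early gene, did not follow EGR1, with 0.30 in H460 3D and -0.81 in H460 2D. Of 24 ERK output genes 7 were at least 2-fold lower in H460 3D and none at least 2-fold higher, where 1.86% and 1.96% of all genes were. Among these 7 were DUSP5, a nuclear phosphatase of ERK (-1.61), the receptor kinases EPHA2 (-1.51) and EPHA4 (-1.33), FOSL1 (-1.29) and PHLDA1 (-1.23). DUSP6, the cytoplasmic ERK phosphatase, went the other way at 0.62. The group's median was -0.29, and -0.11 (H1703) to 0.35 (A549) elsewhere, and it was -0.08 in H460 under the stricter filter on low arrays.

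ATF4 induces amino acid synthesis and transport genes when translation is restrained. Of 24 tested ATF4 targets 13 were at least 2-fold lower and 22 were below 0, where 1.86% and 50.5% of all genes were. The median was -1.03, against -0.0046 over all genes. CHAC1, which degrades glutathione, was at -0.13 in 3D and 2.23 in 2D. ASNS, asparagine synthetase, was at 0.10 and 1.87 (-0.82 as a difference with a dim probe set included), NUPR1, a stress-induced chromatin protein, at -0.32 and 1.34, and DDIT3, the factor CHOP, at -0.65 and 0.90. H661 had the lower median, -1.31, with 19 genes at least 2-fold lower, and the other lines had -0.44 to 0.12. Of all genes, 689 were at least 2-fold lower in H661, beside 263 in H460. VLDLR was the one ATF4 target at least 2-fold higher, at 1.23, and the serine enzyme SHMT2 was at 0.34. Of 23 tested p53 targets 22 were below 0 and 5 at least 2-fold lower, beside 50.5% and 1.86% of all genes, with a median of -0.61. GDF15, a secreted stress cytokine, was at 0.28 in 3D and 3.37 in 2D (-0.94 as a difference with its dim probe sets included), and CDKN1A, the cell cycle inhibitor p21, at -1.10 and 0.51. A549 had a p53 median of -0.78, and the other 6 lines -0.13 to 0.32. None of the ATF4 or p53 targets was called as a difference of H460 from the other lines.

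Most of the other genes among the 12 lowest were in none of these groups. HINT3, a histidine triad protein, was at -0.04 in 3D and 3.62 in 2D, with its 3 probe sets between -5.79 and -1.94. SHH, a secreted morphogen, was at 0.37 and 3.65, and its difference was -2.09 with a dim probe set included. KRT80, a keratin of junction-rich epithelia, was at -0.53 and 2.21, and PTX3, a soluble pattern recognition protein, at -0.02 and 2.66. DCAF4L1, AKNA, LAMP3 and ELOVL7 had differences of -2.90, -2.57, -2.54 and -2.43, and that of AKNA was -1.21 with a dim probe set included.

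All 25 mitosis genes were below 0 in H460 and 5 were at least 2-fold lower, where 50.5% and 1.86% of all genes were. Their median was -0.74. CENPE, a kinetochore motor, differed by -1.29, CDC20, an activator of the anaphase-promoting complex, by -1.25, and PLK1, a mitotic kinase, by -1.07. The other lines had medians of -1.03 (H358) to 0.06 (A427), with 22 or more of the 25 genes below 0 in each but A427. The replication genes of H460 had a median of -0.31 and 1 gene of 32 at least 2-fold lower, against 11 in H358 and 10 in H661. Over all genes, 392 were at least 2-fold lower in H358 and 689 in H661, beside 263 in H460. MCM2, MCM3 and MCM4, subunits of the replicative helicase, were already low in the line, with MCM2 at -1.39 in 3D and -1.47 in 2D, below all other arrays. Of 23 proteasome genes, 21 were below 0, where 50.5% of all genes were. Their median of -0.44 was below the other 7 lines (-0.40 in H358 to -0.03 in A427).

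The HIF factors induce glycolysis, mitophagy and the prolyl hydroxylases that restrain them. Of 23 tested targets 20 were above 0 in H460, where 49.4% of all genes were, and 10 at least 2-fold higher, with a median of 0.77, and the other lines had medians of 0.38 (A427) to 0.87 (H1437). SPAG4 was at 1.37 in 3D and -0.73 in 2D. BNIP3L, a mitophagy receptor, differed by 1.68, EGLN3, a prolyl hydroxylase, by 1.68, and NDRG1 by 1.39. SLC2A1, the glucose transporter, differed by -0.13 and was the one value below 0 among the 8 lines, and ADM, adrenomedullin, by -0.02. Of 17 glycolysis genes 16 were above 0, with a median of 0.35 (0.18 under the stricter filter on low arrays), and ALDOC, aldolase C, differed by 1.98. TXNIP and ARRDC4, arrestins induced by glucose, differed by 1.74 and 1.75, inside the range of the other lines.

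Among class I antigen presentation genes, HLA-B, HLA-E and HLA-C, class I heavy chains, differed by 1.14, 1.08 and 1.07. For HLA-E H358 had 1.14. HLA-B and HLA-C were above all other lines, HLA-C by very little. In A549 HLA-C was at -1.27 in 3D and -2.33 in 2D, nearly the same difference, and HLA-B at -2.01 and -2.96. B2M, their light chain, differed by -0.07. Of 16 class I genes 11 were above 0, with a median of 0.46 (0.30 under the stricter filter), and 4 were above the other 7 lines, where 9.77% of all genes were. The class I median was 0.50 in A549, 0.43 in H358 and -0.55 (H661) to 0.19 (H23) in the rest. Interstitial matrix genes had a median of 0.38, and 0.11 with dim probe sets included, beside 0.78 in A549 and at most 0.07 in the remaining lines. FBN1, fibrillin 1, was at 0.78 in 3D and -0.99 in 2D, DCN, decorin, at 1.43 and 0.20, and LUM, lumican, at 4.97 and 3.78. COL3A1, a fibrillar collagen, was at 2.53 and 3.40, the other direction. NID2, nidogen 2 of the basement membrane, measured by a dim probe set, was at 5.90 in 3D and 7.41 in 2D. DCN and LUM are also fibroblast markers, and the 9 tested markers of that list had a median response of 0.03, which was -0.06 without the probe sets that can bind related transcripts. TGF-beta targets had a median of 0.27, above the other 7 lines (-0.56 in H23 to 0.23 in A549), with BAMBI, a decoy receptor, at 0.41 in 3D and -0.92 in 2D.

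**Figure D5:**
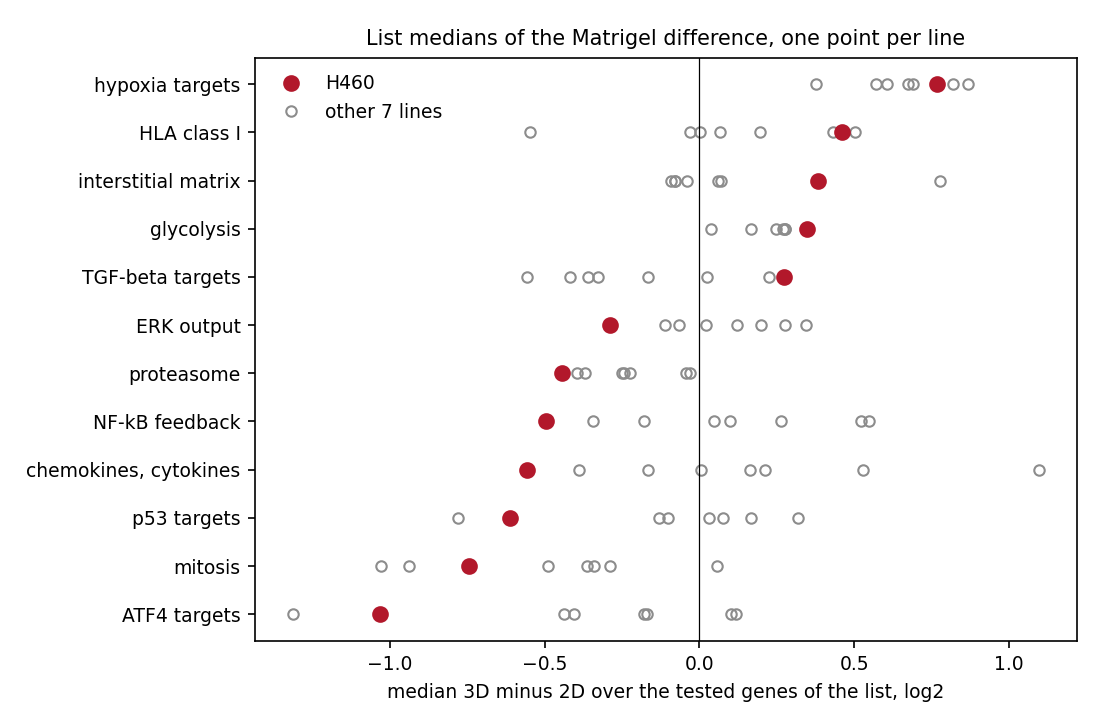
Median 3D minus 2D (horizontal axis, log2) over the tested genes of 12 lists in H460 (red) and in the other 7 lines (open grey), with 1 point per line. H460 is the lowest line for chemokines and cytokines (-0.56), NF-kB feedback (-0.50), ERK output (-0.29) and proteasome (-0.44), and lies among the others for hypoxia targets (0.77), mitosis (-0.74) and ATF4 targets (-1.03).

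Of the lists with identity medians far from 0, the chemokines and the ATF4 targets, at 1.27 and 0.85, had the responses of -0.56 and -1.03 given above. The NRF2 targets had a median response of -0.20 (-0.13 under the stricter filter), with AKR1B10 at -0.18 and CYP4F11 at -0.22, and HMOX1, haem oxygenase, was the one at least 2-fold lower, at -1.28, and CES1, a carboxylesterase, the one at least 2-fold higher, at 1.01. The junction genes had a median of 0.03. DSP and SPINT2 stayed at the lowest ratio in both cultures, and CLDN1 differed by -1.27 and LSR by 1.18. The mesenchymal genes had a median of 0.08, with FN1 at 0.88 and CDH11 at -0.19. NOTCH genes had a median of 0.03, with HES1 at 1.02 and HEY1 at 1.45. Among receptor kinases MERTK, a receptor that takes part in the uptake of apoptotic cells, had the largest difference, at -2.29 in 3D and -0.47 in 2D, and INSR, the insulin receptor, was at -0.16 and -1.21. The other lines had MERTK responses of -0.39 to 0.69. Of the 12 called identity genes, 11 differed by at most 0.85 between the cultures, LOC102546299 being the exception.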

How the data were processed

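RNA of 16 cultures was hybridised to Affymetrix Human Genome U133 Plus 2.0 arrays from 200 ng each, per the labels' protocols. The authors deposited log2 ratios, which in the values are relative to each probe set's own median over the arrays, or to a fixed minimum for the 36.5% of 54675 probe sets whose median is lower. How the arrays were scaled to each other, and with which software, is not stated in the labels, and array data give no depth. Probe sets with 1 gene symbol (41097) were kept and those at their reference averaged per gene. The limma test (3.58.1, R 4.3.3) used line means and 3D minus 2D differences of 8 lines, with moderated variances that follow the mean value and Benjamini-Hochberg adjustment. Tested on simulated data of 14113 genes, it recovered 2%, 28% and 52% of identity changes of log2 size 1, 2 and 4, and 12%, 50% and 92% of such response changes. Genes named were the called ones, the 12 highest and 12 lowest H460 responses, the 10 highest genes with only dim probe sets and members of 43 gene lists, and others are marked as chosen after their values were seen. The members and lists were chosen with earlier results of these data known. Alternatives changed the probe set choice, filter, scaling, variance trend and lines included. Promoters came from RefSeq. A called gene is not reported here.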

Additional observations from a re-analysis of the deposited data

Results flagged for a closer look

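The response of ITGA2B in H460 differed from the mean of the other 7 lines by 3.44 on the log2 scale, as tested by limma across all genes (adjusted p = 0.0045). The gene was higher in H460 3D than in H460 2D by 3.38, against -0.39 to 0.11 in the other lines.

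The response of LOC102546299 differed by -1.68 (limma, adjusted p = 0.035). It was -1.54 in H460 and above 0 in each of the other 7 lines.

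EGR1 had a 3D minus 2D value of -1.81 in H460, while each of the other 7 lines had one above 0. The limma test of that difference did not pass the threshold (adjusted p = 0.59).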

How the results depend on the processing

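The count of 13 genes in the identity comparison was 170 with no filter on dim probe sets, 0 under the stricter filter on low arrays (599 genes at an unadjusted p under 0.05 by limma), 21 with the 2D arrays only, 23 without the variance trend, and 6 to 20 when 1 other line was left out. The response comparison gave 2 genes, and 1 with the probe set of highest mean, 55 with no filter on dim probe sets, 1 without the variance trend, and 1 to 5 when 1 other line was left out. The 540 genes past 2-fold between H460 3D and 2D became 359 under the stricter filter, and the 277 higher ones 172. The cause of these moves was not tested. None of the called genes and named response genes changed sign in the alternatives run for it. The other list members named above were not each checked in this way. Among the gene list medians, 17 of 43 identity medians and 11 of 43 response medians changed sign under at least 1 alternative, and the interferon-stimulated response was -0.11 once probe sets that can bind related transcripts were left out, against 0.27. The NRF2, LKB1 and junction identity medians and the chemokine, NF-kB, ERK, ATF4, p53 and mitosis response medians kept their sign in all alternatives run. Over the alternatives, the named identity genes kept the call 143 times and lost it 47 times. The chemokine and cytokine identity median was 0.15 with the 3D arrays only, 1.78 with the 2D arrays only and -0.18 under the stricter filter. The response medians near 0 ran from 0.01 to 0.16 for junction genes, -0.0034 to 0.20 for mesenchymal genes and 0.0031 to 0.05 for NOTCH genes. The response comparison pairs the cultures by line through the 3D minus 2D difference. By replicate number no paired analysis was possible because each line has 1 array per culture. Array values carry no count of molecules, and 1 array per culture limits the precision of every H460 difference.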
